A study of Mus musculus with 6 samples.

Results

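The secreted Wnt antagonists are 10 mouse genes, Sfrp1, Sfrp2, Sfrp4, Sfrp5, Frzb, Dkk1, Dkk2, Dkk3, Wif1 and Notum, followed here by the 12 of 25697 array probes whose gene symbol names them. Of these symbols 9 stand in the array table as such, and the Notum probe is listed there under the older symbol 5730593N15Rik. Their RNA was read in whole tracheas of E18.5 mouse embryos with an Illumina mouse bead array, where each probe is read from many beads. The 3 pools labelled mutant (genotype Sox9-/-) came from embryos in which mesenchymal Sox9 was missing and no cartilage rings formed, and the 3 pools labelled control (genotype Sox9+/+) came from wild-type embryos. All were on the C57BL/6 background, each pool combined 3 tracheas at random, and the 9 embryos per group came from 7 litters in all. The Cre line or promoter behind the mesenchymal deletion is not given in the sources used here. Each value is an average over 3 embryos, and array position cannot be told apart from group, since the control arrays took the first positions of the slide.

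Wnt proteins are lipid-bearing signals that bind Frizzled receptors together with the co-receptors Lrp5 and Lrp6, or with Ror and Ryk receptors. Secreted antagonists act outside the cell. The secreted Frizzled-related proteins (Sfrp1, Sfrp2, Sfrp4, Sfrp5 and Frzb, also called Sfrp3) and Wif1 bind the ligands, Dkk1 and Dkk2 occupy Lrp5 and Lrp6, and Notum is an enzyme that removes the lipid from Wnt. Dkk3 is a divergent relative of the other Dkk proteins whose part in Wnt signalling is less settled. In the developing mouse trachea Wnt ligands from the epithelium act on the mesenchyme that forms cartilage and muscle, and Notum is needed there for normal cartilage.

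Sfrp2, Wif1 and Dkk3 fell in the pools labelled mutant, by 2.54-fold, 1.95-fold and 1.51-fold. Their signals in the 3 mutant-labelled pools all lay below those of the 3 control-labelled pools. Frzb and Sfrp1 had lower means that did not pass the test, and Notum had a 2.20-fold higher mean that did not pass it either. Sfrp4, Dkk1, Dkk2 and Sfrp5 were at or near the background of the array. In the fit over 10831 genes, 3 of the 6 antagonists tested were called lower and 0 higher (limma, adjusted p below 0.05), where 3.37% of all genes tested were called lower and 2.16% higher. The count called lower was 0 without control pool 3, mutant pool 2 or mutant pool 3, 1 without control pool 2, 2 without control pool 1 and 3 without mutant pool 1. Notum was called higher under 3 of the 10 other alternatives that tested it. At an unadjusted p below 0.05, 4 were lower and 1 higher (Frzb among the 4), where 13.0% of all genes tested were lower and 12.1% higher. With arrays scaled to a common median in place of quantiles the same 3 antagonists were called, while the calls over all genes were 289 lower and 350 higher, against 365 lower and 234 higher. The groups did not overlap in 4 antagonists that were lower and 1 that was higher, and such a separation was found in 16.1% and 15.3% of all genes tested. Frzb, 1 of these 4, passed the filter on dim probes through the control arrays alone. The median log2 change of the 6 was -0.60, Frzb included, against 0.01 over all genes tested. It was -0.40 without background correction and -0.24 over the 10 genes without the filter. Of the 10 genes, 4 failed that filter and have no test, so these counts describe the 6 measured genes only.

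The window upstream of a transcription start is printed for Sfrp2 and Wif1, the called antagonists with an entry in the promoter table, to show what these windows hold. Each run covers 250 bases ending just before the start in that table, 5′ to 3′ on the gene's strand, from RefSeq with build GRCm38.p6. Of the 10 antagonists 6 had an entry there, and Dkk3 did not. Capitals mark matches on either strand to CTTTGA, the core of a TCF/LEF site through which beta-catenin acts, to CTTTGT, which both TCF/LEF and SOX proteins can bind, to CANNTG, the E-box of proteins such as Twist1, and to TATAAA, the TATA box. The Sfrp2 window is chr3:83766071-83766320, forward strand, and the Wif1 window is chr10:121033754-121034003, forward strand. The Wif1 window ends at the outer edge of the annotated gene. The annotated Sfrp2 gene (chr3:83765750-83774314) begins 571 bases upstream of the start in the promoter table, so the Sfrp2 window lies inside the gene's outer limits and the region before its outermost start is not shown.
Sfrp2: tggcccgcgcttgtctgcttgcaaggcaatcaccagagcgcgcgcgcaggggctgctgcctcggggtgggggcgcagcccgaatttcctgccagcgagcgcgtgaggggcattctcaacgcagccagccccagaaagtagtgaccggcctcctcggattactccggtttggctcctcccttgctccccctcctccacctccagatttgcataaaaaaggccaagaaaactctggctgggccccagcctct
Wif1: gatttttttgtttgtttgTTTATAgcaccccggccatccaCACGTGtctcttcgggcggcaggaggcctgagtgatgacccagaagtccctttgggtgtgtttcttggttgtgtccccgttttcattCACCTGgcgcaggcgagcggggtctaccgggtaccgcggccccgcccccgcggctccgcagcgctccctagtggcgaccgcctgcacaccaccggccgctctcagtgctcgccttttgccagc
The Sfrp2 window held no match to any of the 4 motifs. The Wif1 window held 2 E-boxes and 1 TATA-box match on the reverse strand, at the far end from the start, and no match to CTTTGA or CTTTGT. Among 32851 promoter windows of the same length, 13.8% held CTTTGA, 16.5% CTTTGT, 66.2% CANNTG and 12.4% TATAAA. A match describes letters in this window only, and sites further away were not looked at.

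Array medians of the raw intensity were 205 to 211 for the pools labelled mutant and 183 to 198 for those labelled control, and 14468 to 14726 probes were detected per array. The deleted gene could not check the labels: the only Sox9 probe read 202, 185 and 196 in pools 1 to 3 labelled mutant (detection p 0.0163 to 0.0426), against 148, 141 and 151 in those labelled control (detection p 0.358 to 0.748). The limma fit called Sox9 higher in the pools labelled mutant (adjusted p = 0.0164, groups not overlapping), the direction opposite to the label. The probe passed the filter on dim probes through the mutant arrays alone, so this call is no evidence on the label or of a rise. The probe was at background on all 3 control-labelled arrays, so the fitted log2 change of 0.86 is not a measured size. With control values raised to the lowest level detected on each array, the mutant mean was 1.12-fold higher, and that mean lay near background too. Where the probe lies relative to the deleted part is not known here. Col2a1, the main collagen of cartilage, stood at 5.34 ± 0.37 in the pools labelled mutant and 11.70 ± 0.02 in those labelled control (log2, SD, n = 3 each), so that the cartilage gene was lower where the label says rings were missing.

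**Figure D1:**
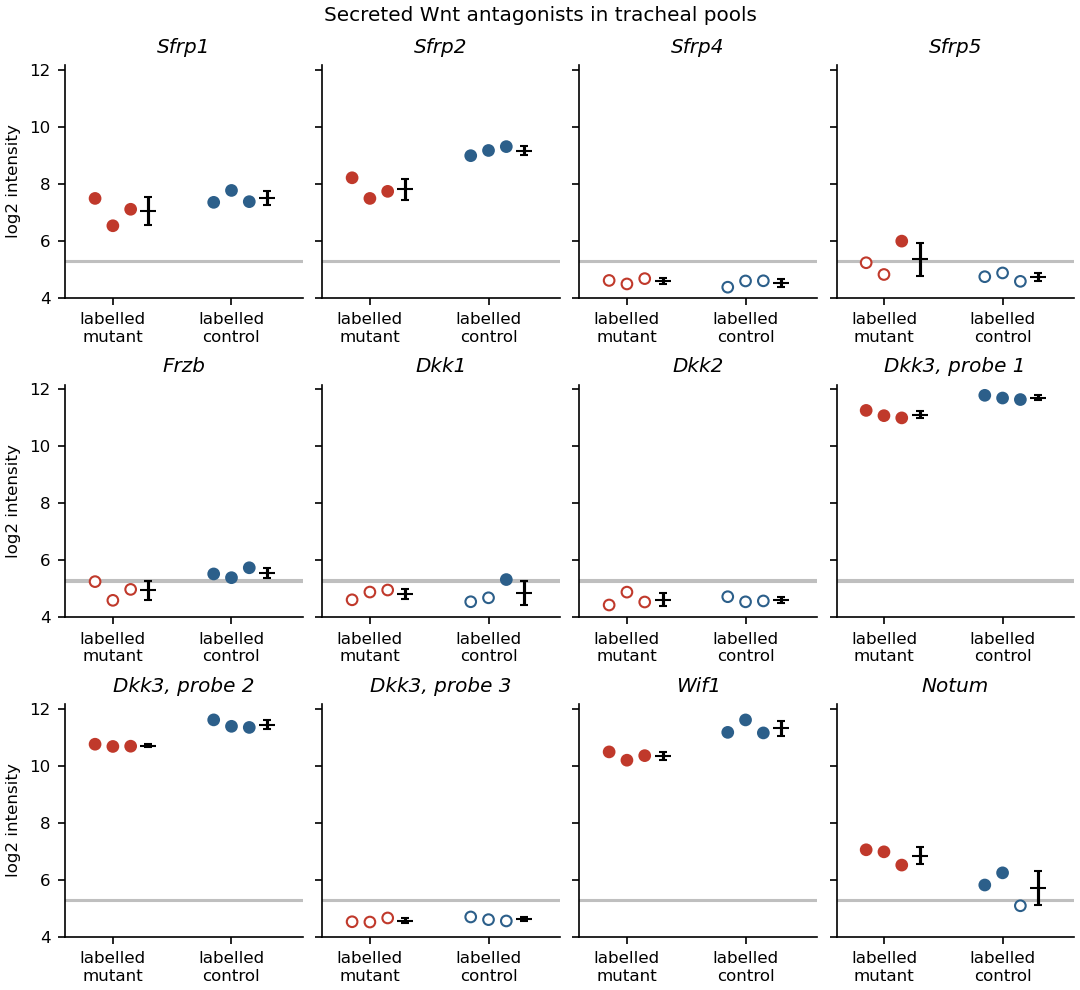
Normalized log2 intensity of the 12 probes in each pool, labelled mutant (red, left) and labelled control (blue, right), where filled points were above background (detection p below 0.05), open points were not, bars give the mean and SD (n = 3) and the grey band spans the lowest detected level on the 6 arrays. Sfrp2, Wif1 and probes 1 and 2 of Dkk3 separate the groups well above the band, and Sfrp4, Dkk2 and Dkk3 probe 3 lie below it on all 6 arrays; levels of different probes are not to be compared.

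Sfrp2 was called, unlike Sfrp1 and Frzb, the other Frizzled-related proteins tested. It is made by mesenchymal cells in many embryonic organs. Its raw bead intensity was 478, 335 and 381 in pools 1 to 3 labelled mutant, against 581, 632 and 758 in those labelled control. Each value rests on 41 to 54 beads with a standard error over beads of 14.2 to 46.9 intensity units. The normalized log2 intensity was 8.21, 7.48 and 7.73 in the pools labelled mutant and 8.98, 9.16 and 9.30 in those labelled control. The groups did not overlap, and mutant-labelled pool 2 was lowest. The log2 change was -1.34 (SE 0.19, 95% interval -1.80 to -0.88, limma adjusted p = 0.0196), the 57th largest fall of 10831 genes. The change was smaller without background correction, -0.95 (limma adjusted p = 0.00346), so its size depends on that step. The authors' deposited table gave a log2 change of -1.34 with an adjusted p of 0.0224. The call was lost without control pool 2, control pool 3, mutant pool 2 or mutant pool 3 (adjusted p = 0.0656, 0.0640, 0.0685 and 0.0631), with changes of -1.34, -1.27, -1.18 and -1.31.

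Sfrp1, a close relative of Sfrp2, was detected on all 6 arrays and did not pass the test. Its log2 intensity was 7.48, 6.52 and 7.10 in the pools labelled mutant and 7.34, 7.76 and 7.37 in those labelled control. The groups overlapped, since mutant-labelled pool 1 lay above control-labelled pools 1 and 3. The log2 change was -0.46 (SE 0.25, limma adjusted p = 0.306), with a 95% interval of -1.05 to 0.14, so that falls of up to 2-fold are within it. Without background correction the change was -0.23, and without mutant pool 2, the lowest, it was -0.20.

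Frzb, first known as a chondrogenic factor of cartilage extracts, was read at the edge of the background. Its log2 intensity was 5.24, 4.59 and 4.97 in the pools labelled mutant and 5.51, 5.38 and 5.73 in those labelled control. The probe was above background on all 3 control arrays (detection p 0.00877 to 0.0351) and on 0 of 3 mutant arrays (detection p 0.0564 to 0.566). It passed the filter on dim probes through the control arrays alone, so that its fitted difference is not a measured size. The limma test did not pass (adjusted p = 0.101), and the fitted log2 change was -0.61 (SE 0.18) with background correction and -0.17 without it. In raw intensity the groups overlapped, with 188, 159 and 180 in the pools labelled mutant against 174, 171 and 195 in those labelled control.

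Sfrp4 and Sfrp5 had no test. The Sfrp4 probe was below background on all 6 arrays, with raw intensities of 152 to 167 in the pools labelled mutant and 127 to 155 in those labelled control. Sfrp5, an antagonist of foregut endoderm in the early embryo, had raw intensities of 187, 170 and 218 in the pools labelled mutant, against 150, 156 and 154 in those labelled control. Mutant-labelled pool 3 alone was above background, with a detection p-value of 0.00376. The raw groups did not overlap, with the pools labelled mutant above, while on the log2 scale the groups overlapped. Raw array medians were also higher for the pools labelled mutant, and the part of this in the Sfrp5 values was not tested.

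Sfrp1 and Sfrp2, the Frizzled-related proteins above background on all 6 arrays, were set against each other within each array, a measure that a shift of a whole array leaves unchanged. The log2 value of Sfrp1 minus that of Sfrp2 was -0.96 to -0.63 in the pools labelled mutant and -1.93 to -1.40 in those labelled control, a difference of 0.89, and the groups did not overlap. The exact permutation test (two-sided, n = 3 each) gave p = 0.1, or 0.15 after Benjamini-Hochberg adjustment over the 3 pairs computed, and 0.1 is the smallest p that 3 pools against 3 allow, so this test could not pass. The other 2 pairs held Frzb, which has no measured level in the pools labelled mutant, and are not given.

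Wif1, which binds Wnt ligands, was bright on all 6 arrays. Its raw intensity was 1722, 1397 and 1551 in the pools labelled mutant and 2175, 2944 and 2428 in those labelled control, with 28 to 39 beads per value. The log2 intensity was 10.48, 10.19 and 10.35 in the pools labelled mutant and 11.17, 11.61 and 11.15 in those labelled control. The groups did not overlap, and control-labelled pool 2 was highest. The log2 change was -0.97 (SE 0.15, 95% interval -1.33 to -0.61, limma adjusted p = 0.0235) and -0.90 without background correction. The authors' deposited table gave -0.97 with an adjusted p of 0.0284. The call was lost without control pool 3, mutant pool 2 or mutant pool 3 (adjusted p = 0.0555, 0.0985 and 0.0687), and without control pool 2 the change was -0.81 and still called (adjusted p = 0.0484).

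Dkk3 was read by 3 probes that differed among themselves. The brightest probe had log2 intensities of 11.26, 11.07 and 10.99 in the pools labelled mutant, against 11.79, 11.69 and 11.64 in those labelled control. The second probe had 10.75, 10.67 and 10.68 in the pools labelled mutant, against 11.61, 11.38 and 11.34 in those labelled control. Both probes separated the groups. The log2 change was -0.60 for the brightest probe (SE 0.10, 95% interval -0.84 to -0.35, limma adjusted p = 0.0286), which stood for the gene. In the fit with each probe as a row it was -0.60 (adjusted p = 0.0328) for that probe and -0.74 (adjusted p = 0.0198) for the second. The authors' deposited table gave -0.60 and -0.74 with adjusted p of 0.0367 and 0.0224. The third probe was below background on all 6 arrays (raw intensity 154 to 167 in the pools labelled mutant and 145 to 152 in those labelled control), and which transcript it reads is not known here. The gene's call held without mutant pool 1 alone. Without control pool 1, 2 or 3 the adjusted p was 0.0537, 0.0842 and 0.0762, and without mutant pool 2 or 3 it was 0.110 and 0.0812.

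Dkk1, itself a target gene of Wnt signalling, and Dkk2 were at background. The Dkk1 probe read 162, 172 and 180 raw intensity units in the pools labelled mutant, against 141, 149 and 181 in those labelled control. Control-labelled pool 3 alone was just above background, with a detection p-value of 0.0464. The Dkk2 probe read 149 to 172 in the pools labelled mutant and 142 to 153 in those labelled control, above background on 0 of 6 arrays. No level can be given for either gene, and no change was detectable at this signal.

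Notum was the only antagonist tested whose mean was higher in the pools labelled mutant. Its raw intensity was 296, 278 and 248 in the pools labelled mutant and 183, 201 and 174 in those labelled control. The log2 intensity was 7.05, 6.97 and 6.51 in the pools labelled mutant and 5.81, 6.24 and 5.08 in those labelled control. The groups did not overlap, and the probe was above background on 3 mutant arrays and on 2 of 3 control arrays, not on that of pool 3. The log2 change was 1.13 (SE 0.30, 95% interval 0.43 to 1.84), the 84th largest rise of 10831 genes. With adjustment over all genes it was not called (limma adjusted p = 0.0766). In the authors' deposited table it was 1.14 with an adjusted p of 0.0850. It was called without background correction (log2 change 0.40, adjusted p = 0.0445), with a larger offset (0.77, adjusted p = 0.0467) and with a variance trend (1.13, adjusted p = 0.0319). It was not called in any of the 6 fits without 1 pool (adjusted p 0.0748 to 0.204).

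**Figure D2:**
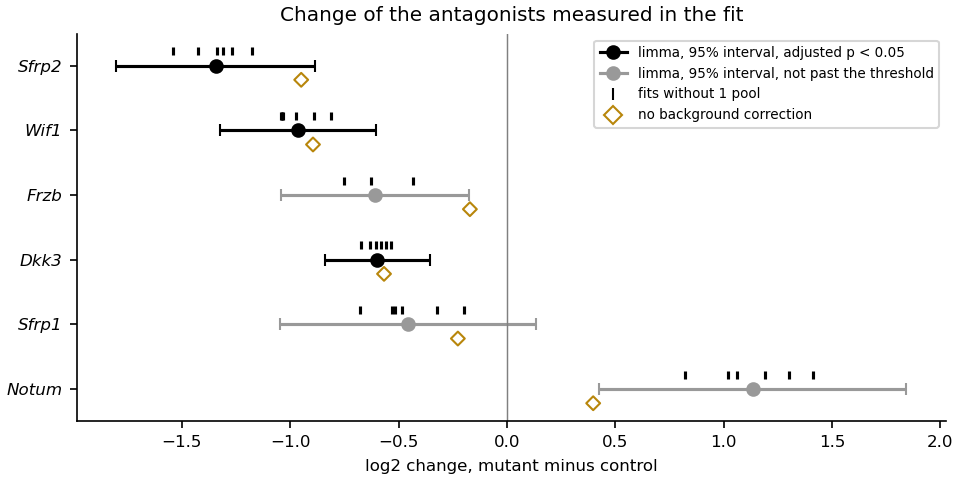
Log2 change, labelled mutant minus labelled control, of the 6 antagonists tested, with the 95% interval of the limma fit (black where the adjusted p was below 0.05, grey where it was not), the value in each fit without 1 pool (ticks above) and the value without background correction (open diamonds below). Without background correction Sfrp2, Wif1 and Dkk3 stand at -0.95, -0.90 and -0.57, while Frzb and Notum, close to background, shrink to -0.17 and 0.40.

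The other genes of the pathway were counted over 6 lists by role, 60 tested genes in all besides the antagonists. Of these 4 fell and 0 rose (limma, adjusted p below 0.05), where 3.37% of all genes tested were called lower and 2.16% higher. At an unadjusted p below 0.05 11 were lower and 3 higher, where 13.0% and 12.1% of all genes were. The count that fell was 0 without mutant pool 2, 1 without control pool 2, control pool 3 or mutant pool 3, and 4 without control pool 1 or mutant pool 1. Porcn was called higher in 1 of the 6 fits without a pool and under 5 of 11 other alternatives. Among 9 ligand genes tested Wnt5a fell and 8 did not pass, and among 17 receptor genes Fzd2 and Ror2 fell and 15 did not pass. Of 5 genes of the R-spondin system Rspo3 fell and 4 did not pass. In these 3 lists, 2 ligands, 3 receptors and 1 R-spondin gene were lower at an unadjusted limma p below 0.05, and 1 receptor was higher. None of 10 other extracellular regulators and 13 transducers passed the limma test (unadjusted p below 0.05 in 1 lower and 1 higher regulator and in 4 lower transducers). Of 11 target genes tested, Wif1, already counted as an antagonist, was the only call. At an unadjusted limma p below 0.05, 1 target was lower, Wif1, and 2 were higher, Notum and Tnfrsf19. The median log2 change was between -0.25 and 0 in each of the 6 lists, against -0.60 over the 6 antagonists tested, Frzb included. The target list shares Wif1 and Notum with these antagonists.

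Wnt5a is a ligand that signals mainly outside the beta-catenin route, and Ror2 is a receptor for it. The log2 intensity of Wnt5a was 9.55, 9.24 and 8.76 in the pools labelled mutant and 10.20, 10.25 and 10.05 in those labelled control. Ror2 had 8.57, 8.28 and 8.14 in the pools labelled mutant and 8.95, 9.09 and 9.20 in those labelled control. In both genes the groups did not overlap. The log2 changes were -0.98 for Wnt5a (SE 0.20, limma adjusted p = 0.0409) and -0.75 for Ror2 (SE 0.14, adjusted p = 0.0319). The Frizzled gene Fzd2 changed by -0.79 (SE 0.13, adjusted p = 0.0249). Of the 6 fits without 1 pool, 1 called Wnt5a, 2 called Ror2 and 2 called Fzd2.

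Rspo3 encodes a secreted protein that strengthens Wnt signals by protecting Frizzled receptors from removal, the opposite action to that of the antagonists. Its log2 intensity was 8.35, 8.10 and 8.20 in the pools labelled mutant and 9.04, 9.26 and 9.02 in those labelled control, with no overlap. The log2 change was -0.89 (SE 0.11, limma adjusted p = 0.0131), and it was called in 5 of the 6 fits without 1 pool, with adjusted p = 0.0668 without mutant pool 2. Porcn, the enzyme that adds the lipid which Notum removes, had a mean 0.63 higher on the log2 scale (SE 0.14, limma adjusted p = 0.0512). Igfbp4, a binding protein of insulin-like growth factors that also blocks Frizzled receptors, had a change of -0.40 (SE 0.12, adjusted p = 0.0965). The beta-catenin cofactor genes Bcl9l and Pygo1 had log2 changes of -0.46 and -0.28 (adjusted p = 0.135 and 0.176). Axin2, a widely used readout of beta-catenin signalling that was singled out after its value was seen, had a change of -0.17 (95% interval -0.62 to 0.27, limma adjusted p = 0.615).

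**Figure D3:**
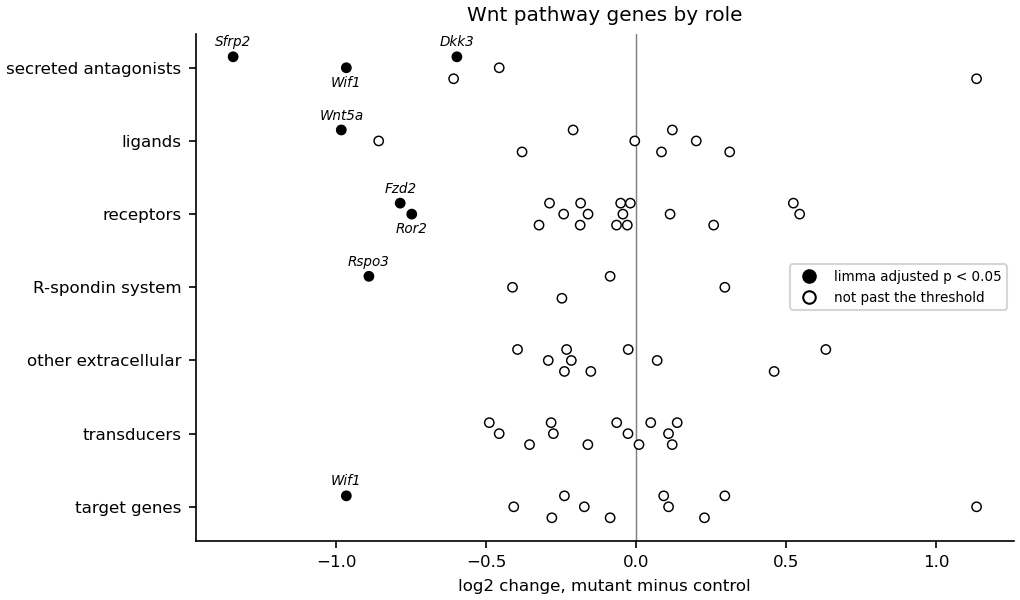
Log2 change, labelled mutant minus labelled control, of each tested gene of 7 Wnt lists by role, with filled points and names where the limma adjusted p was below 0.05. Named points lie between -1.34 (Sfrp2) and -0.60 (Dkk3), and the highest point, 1.13 in the antagonist and target lists, is Notum.

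The genes most like the 3 called antagonists over the 6 arrays were found by the root mean square difference of log2 values centred on each gene's mean. For Sfrp2 they were Scube3, a secreted EGF-repeat protein (difference 0.14), Zfhx4, a homeodomain factor (0.15), and the fibril-associated collagen gene Col12a1 (0.16). For Wif1 they were Rspo3 (0.084), the adhesion adaptor gene Lims2 (0.089) and the actin-binding Aif1l (0.089). For Dkk3 they were Abcg4, a lipid transporter (0.037), Cercam (0.042) and Frmd6 (0.051). All 9 were called lower, with log2 changes of -0.58 for Abcg4 to -1.62 for Col12a1. Likeness over 6 arrays rests largely on the step between the groups that they share.

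Whole tracheas hold many cell types, and fewer cells of a type cannot be told apart from less RNA per cell. The summed normalized intensity of the 8 tested chondrocyte markers was 1282 to 1471 in the pools labelled mutant and 9432 to 11003 in those labelled control. Of the 8, 5 fell (limma, adjusted p below 0.05), where 3.37% of all genes tested were called lower and 2.16% higher. Hapln1, 1 of these 5, was above background on 0 of 3 mutant arrays. It passed the filter on dim probes through the control arrays alone. Acan and Matn1, also among the 5, were above background on 1 of 3 mutant arrays, and Col2a1 on 2 of 3. Of the 10 perichondrium and fibroblast markers 4 fell, the transcription factor genes Twist1 (log2 change -1.28) and Twist2 (-0.71), the surface protein gene Thy1 (-1.25) and the collagen gene Col1a1 (-0.55). Their summed level was 40422 to 48277 in the pools labelled mutant and 51058 to 55167 in those labelled control. Of 6 smooth muscle markers 2 fell, Actg2 (-0.86) and Tagln (-0.65), with summed levels of 17328 to 25684 in the pools labelled mutant and 24629 to 33721 in those labelled control. The 6 endothelial markers, with 0 called by limma (2 lower at an unadjusted p below 0.05), summed to 3781 to 4576 in the pools labelled mutant and 4003 to 4826 in those labelled control. The 10 airway epithelium markers summed to 42431 to 43923 in the pools labelled mutant and 34364 to 38667 in those labelled control, with 0 called by limma (1 lower and 7 higher at an unadjusted p below 0.05). Over all genes tested, 13.0% were lower and 12.1% higher at that unadjusted threshold. The cartilage markers Col9a3, Matn3 and Cnmd failed the filter on dim probes. The part of cell composition in the falls of Sfrp2, Wif1 and Dkk3 was not tested.

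Markers of neighbouring tissues, of the ciliated cells of the airway lining itself and of blood also varied between pools. Skeletal muscle markers summed to 24104, 17037 and 5138 in pools 1 to 3 labelled mutant and to 696, 1219 and 13674 in those labelled control, with 0 of 6 called by limma (2 higher at an unadjusted p below 0.05). Distal lung markers, with Sftpb called higher (log2 change 2.32, adjusted p = 0.0286), summed to 1294 to 3151 in the pools labelled mutant and 375 to 597 in those labelled control, while Sftpa1 and Lamp3 were below the filter. The 6 ciliated cell markers, with 0 called (4 higher at an unadjusted p below 0.05), summed to 29085 to 35667 in the pools labelled mutant and 21317 to 29493 in those labelled control. The 5 blood markers, with Slc4a1 called lower (-0.84), summed to 3121 to 4084 in the pools labelled mutant and 4117 to 4475 in those labelled control. Over all genes tested, limma called 3.37% lower and 2.16% higher, and 13.0% were lower and 12.1% higher at an unadjusted p below 0.05. The part of these tissues and cells in the antagonists' values was not tested.

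**Figure D4:**
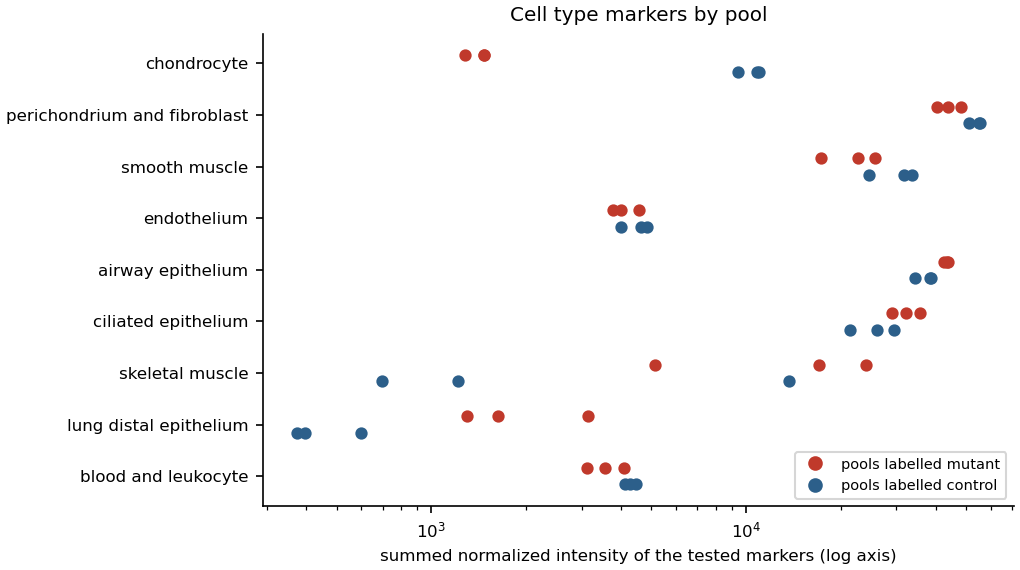
Summed normalized intensity of the tested markers of each cell type (log axis) in each pool, labelled mutant (red, upper row) and labelled control (blue, lower row). Chondrocyte sums are 1282 to 1471 in the pools labelled mutant against 9432 to 11003 in those labelled control, fibroblast sums lie apart by less, and skeletal muscle sums spread widely within each group.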

How the data were processed

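Per the labels' protocols, Trizol RNA was treated with DNase, purified on columns and made into biotin-labelled cRNA for Illumina arrays. The deposited raw table holds, per the file headers, each probe's mean bead intensity with its standard error, the bead count and a detection p. The authors deposited normalized log2 values, limma's score columns and p-values. Per the submitters' processing notes they used R 3.2.3 and limma 3.26.9. Here, R 4.3.3 and limma 3.58.1 (function neqc: normexp from detection p, offset 16, quantile) normalized the raw intensities. The result lies within 0.0170 of the deposited log2 values. The 14711 probes detected (p below 0.05) by 3 or more arrays entered the fit. The brightest kept probe stood for each of 10831 genes. Symbols were updated through a RefSeq table of GRCm38.p6 (12036 current, 5218 through synonyms, 866 kept). The limma functions lmFit and eBayes tested labelled mutant minus labelled control over all 6 arrays (two-sided), and p-values were adjusted by Benjamini-Hochberg across the 10831 genes, with 0.05 as threshold. Members of a family were compared by exact permutation over pools. The number of arrays limits the precision.

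The antagonists, lists and tests were chosen with earlier results of these data known. Other Wnt genes and markers were named by rule (per list up to 4 called genes with the largest change, otherwise up to 2 with the smallest p, and the 3 nearest genes of each of the 3 antagonists with the smallest p). One marker list is not reported here. The fit was tested on simulated data. Alternatives were other background corrections, offsets, scalings, values, filters, probe summaries and variance models, the pool number as a blocking factor, and omission of single pools.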

Additional observations from a re-analysis of the deposited data

How the results depend on the processing

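Sfrp2, Wif1 and Dkk3 had negative changes in the 6 fits without 1 pool and in 11 other alternatives, and each was called in 10 of those 11, the exception being the pool number as a block. That fit is not a pairing by design, since pools were made at random. Deviations from the group means had r = -0.0093, -0.085 and -0.10 over genes between same-numbered pools. Centring on the group means constrains these values, so they cannot show whether such pools shared a batch. Under the replicate block the antagonists called lower fell to 0 (adjusted p = 0.0621 for Sfrp2, 0.0704 for Wif1 and 0.0669 for Dkk3, with 4 lower at an unadjusted p below 0.05 in limma), the other Wnt genes called lower to 0 (9 at an unadjusted p below 0.05), and all genes called to 80 lower and 42 higher, against 365 and 234. Without 1 pool, 0 to 3 antagonists were called lower, 0 to 4 other Wnt genes were called lower and 0 to 1 higher, and over all genes 63 to 333 were called lower and 21 to 230 higher. In these fits 3 to 5 antagonists were lower at an unadjusted p below 0.05, as were 10.3% to 13.0% of all genes. Frzb could be tested in 3 of them. Without background correction 560 genes were called lower and 391 higher, and with the variance trend 627 and 455. Both these settings, and the offset of 50, called 1 antagonist higher, Notum, and 1 other Wnt gene higher. Median scaling, the filter on all 6 arrays and the fit without mutant pool 1 also called 1 other Wnt gene higher. In each case that gene was Porcn. Median scaling, which moved the median of all genes to 0.064, called 289 lower and 350 higher. Without the detection filter 137 genes were called higher, and the median change of the antagonists was -0.24, since the 4 dim genes then counted. The filter on at least 2 arrays was chosen after seeing the data. Genes near background, Frzb and Notum among them, have sizes set by the correction, and 4 antagonists were too dim to give a change.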
